A study of Homo sapiens with 6 samples.

Results

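DEAD and DEAH box RNA helicases were examined in HEK293 cells given a siRNA against BAHD1, a chromatin protein that takes part in heterochromatin formation. The members were chosen by symbol. A probe set is a group of short probes that are summarised as 1 signal. It belonged to the family when its only annotated gene was DDX or DHX plus digits and at most 1 letter, without DHX58. This gave 120 of the 54675 probe sets of the array, for 50 genes, of which 35 are DDX and 15 are DHX genes. No signal entered the rule, but the family was taken up with earlier results of this same contrast known. The differences between the groups are therefore a description, and adjusted p-values are printed only as the record of fits over all probe sets.

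HEK293 is a line derived from human embryonic kidney. Cells in serum-containing medium received either a control siRNA or a siRNA against BAHD1 by lipofection, and RNA was taken after 72 h. Each of the 3 biological replicates per group was hybridised to its own array, so both groups share the cell line, the lipid and exposure to a siRNA. All values come from 1 cell line, and the labels describe 1 BAHD1 siRNA without its sequence.

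RNA helicases use ATP to separate RNA strands, to pull proteins off RNA or to clamp onto it. DEAD and DEAH box proteins are named after the single-letter code of a conserved ATPase motif. DEAD box members act locally on short duplexes, whereas many DEAH box members move along a strand. Together they drive spliceosome cycles, ribosome assembly, mRNA export, translation and RNA decay, and dividing cells express most of them.

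The targeted transcript was read by 1 probe set. BAHD1 signals were 62.9, 55.7 and 46.7 in control replicates 1 to 3 and 36.6, 46.8 and 41.2 in BAHD1 siRNA replicates 1 to 3, a level of 76.0% of control with overlapping groups (log2 difference -0.40; limma adjusted p = 0.251 in both fits described further on). Median signals per array ran from 15.9 to 19.5. All 24 probe sets for bacterial RNAs spiked in before labelling had more signal after BAHD1 siRNA (median log2 difference 0.58), and their summed signal was 13830 to 15970 in control and 19170 to 22850 in BAHD1 siRNA arrays. The HEK293 markers NEFL, NEFM, INA and PAX2 each had a kept probe set, and in the brightest one of each all 3 BAHD1 siRNA arrays were above all controls. Markers of other cells (PTPRC, CD3E, ALB, DES and KRT5) had no probe set that passed the filter described next, and 3 of the 4 HBB probe sets passed it dimly, with no signal over 34.7. The part of these shifts in the helicase values was not tested.

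A probe set was kept when its signal exceeded 17.9, the median of all non-control values, in at least 3 of the 6 arrays. Of the family, 93 probe sets of 44 genes passed. No member passed through 1 group alone. The 27 that did not pass included 10 probe sets of 6 genes with none kept: DDX4, DDX25, DDX43, DDX53, DDX60L and DDX3Y. The other 17 belonged to 15 genes that were read by a further probe set. DDX18, DDX39B and DDX47 are the sole gene of no probe set and were not analysed here, and 7 probe sets that carry several symbols were left out.

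The germ line members were each read by 1 probe set, and none was kept. DDX4, the VASA helicase of germ cells, did not exceed a signal of 9.1 in any array, and DDX25, DDX43 and DDX53, which are known from testis or as cancer-testis genes, did not exceed 8.1, 4.7 and 3. The antiviral gene DDX60L reached at most 13.5. No difference between the groups is given for these genes.

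The family as a whole differed little between the groups. Differences are given as BAHD1 siRNA minus control on the log2(signal + 1) scale, so that a difference of 1 is a doubling. Over the 93 kept probe sets they ran from -0.72 to 0.56 with a median of -0.05, against a median of 0.01 over all 27458 kept probe sets. Their median size without sign was 0.15, against 0.17 for all. Only 4 of the 93 (4.3%) were larger than 0.5 in size, against 9.76% of all, and 64 were smaller than 0.2. Sizes shrink with signal, and 41 of the 93 were in the brightest of 4 equal signal classes. Over all kept probe sets the 5th to 95th percentile ran from -0.87 to 1.22 in the dimmest of 12 signal bins. In the brightest bin it ran from -0.29 to 0.25. The smaller sizes are thus not read as a trait of the family. Of the 93, 60 (64.5%) had a negative difference and 33 a positive one, against 48% negative among all kept probe sets. With array medians centred, an alternative that moves the median of all probe sets from 0.01 to -0.13, 76 were negative and 17 positive, against 68.1% negative among all. The share of lower probe sets moved with signal: from the dimmest to the brightest of 4 equal classes it was 39.1%, 44%, 51% and 57.9% over all probe sets. In the same classes 4 of 9, 13 of 17, 17 of 26 and 26 of 41 helicase probe sets were lower.

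Limma was fitted over all kept probe sets in 2 ways. The first fit used one variance prior for every probe set. At a threshold of 0.05 on the adjusted p it called 0 of them (0% of all). At an unadjusted p under 0.05 it had 14 of the 93 helicase probe sets (15.1%), against 17.6% of all. In the second, here named the intensity-trend fit, the prior variance follows the mean signal. It called 3 of the 93, with 2 higher and 1 lower, where 4.45% of all probe sets were called (2.17% higher and 2.28% lower). Below, rose and fell refer to these 3. In 24 of the 93 every BAHD1 siRNA value lay on one side of every control value (6 higher and 18 lower), against 25.6% of all probe sets (13.4% higher and 12.2% lower). Since the family was picked with this contrast known, nothing is read from how these counts compare.

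**Figure D1:**
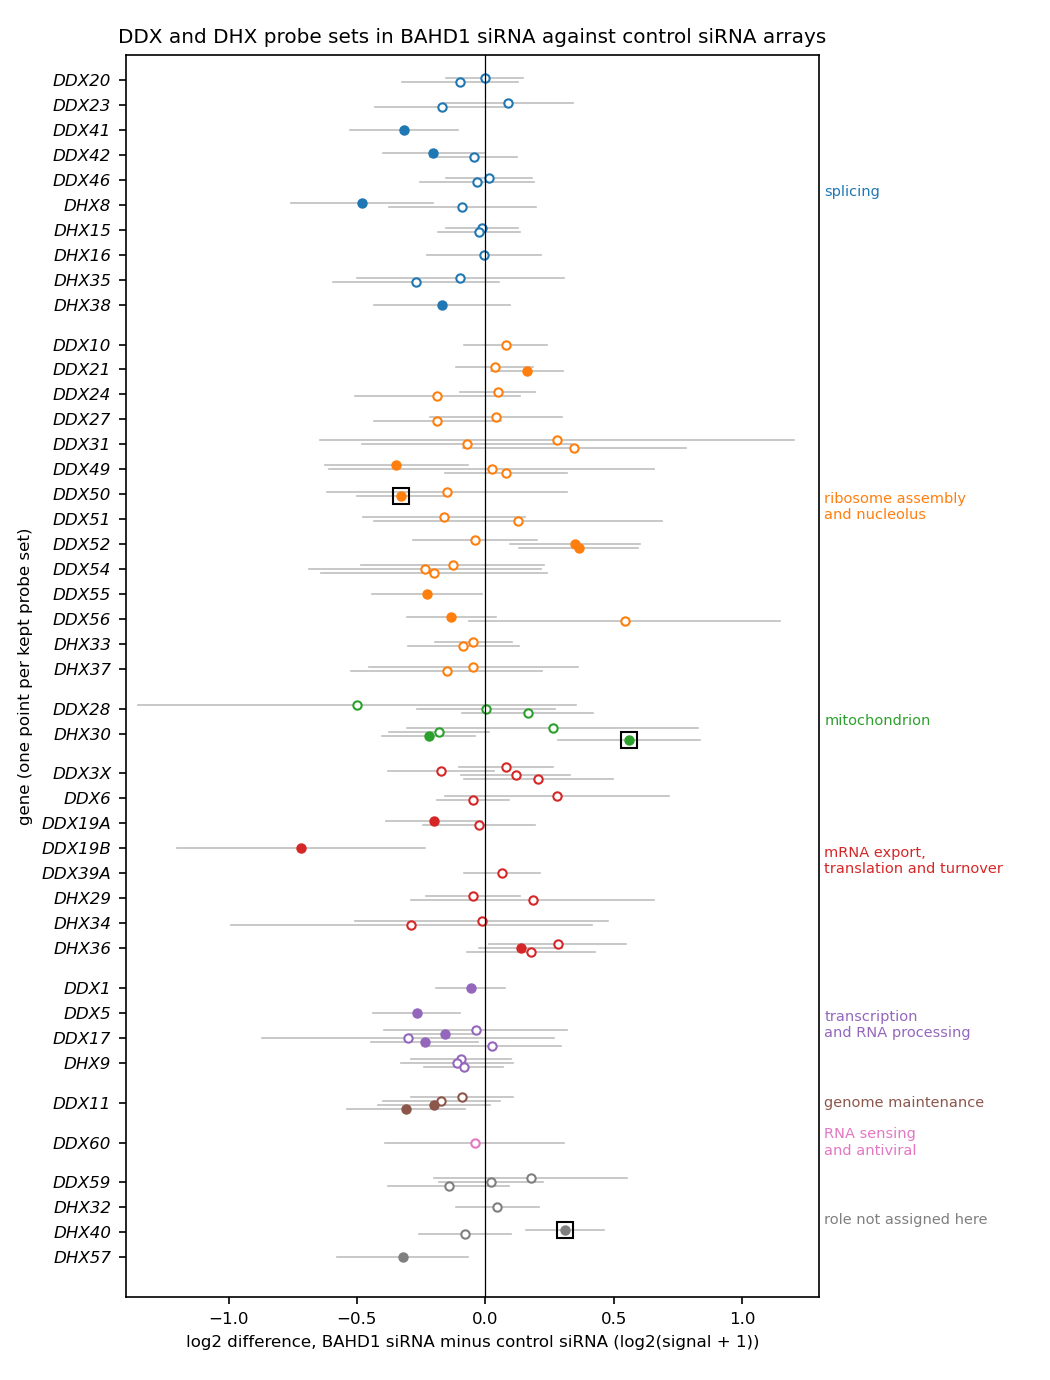
Log2 difference (BAHD1 siRNA minus control siRNA, x axis) of each of the 93 kept probe sets by gene, grouped by role, with 95% intervals from the intensity-trend fit as grey lines. Filled points are the 24 probe sets whose groups do not overlap, and squares mark the 3 with an adjusted p under 0.05 (DHX40, DHX30 and DDX50).

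DHX40, a DEAH box helicase to which no role was assigned here, rose in 1 of its 2 probe sets. The signals of 218277_s_at were 580.6, 637.1 and 630.3 in control arrays and 730.5, 764.3 and 796.7 in BAHD1 siRNA arrays. The lowest BAHD1 siRNA array was clearly above the highest control array. The difference was 0.31 ± 0.07 (SE, n = 3 per group; 95% interval 0.16 to 0.46; limma intensity-trend fit, adjusted p = 0.0316). The other probe set, 222574_s_at, read 620.6, 598 and 710 in control and 633.1, 627.5 and 560.7 in BAHD1 siRNA arrays, with groups that overlap and a difference of -0.08 (95% interval -0.26 to 0.10). The 2 readings of DHX40 thus have intervals that do not meet.

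DHX30, a helicase known to work on mitochondrial ribosome assembly and mitochondrial RNA, was read by 4 kept probe sets that went in both directions. In 230871_at the signals were 105.2, 131.3 and 137.3 in control and 160.1, 194.7 and 196.4 in BAHD1 siRNA arrays, a rise of 0.56 ± 0.13 (SE, n = 3 per group; adjusted p = 0.0318 in the limma intensity-trend fit). In 212674_s_at they were 443.6, 428.4 and 454.3 in control and 396.3, 342.3 and 401.2 in BAHD1 siRNA arrays, a difference of -0.22 (95% interval -0.40 to -0.04). Both comparisons are free of overlap, in opposite directions, which occurred in no other member gene. The remaining DHX30 probe sets had -0.18 and 0.26 with overlapping groups. Which DHX30 transcripts each probe set reads was not tested.

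DDX50, a nucleolar helicase closely related to DDX21, was the 1 member that fell. The signals of 221699_s_at were 1258.5, 1294.7 and 1191.4 in control arrays and 1122.6, 935.2 and 933 in BAHD1 siRNA arrays. BAHD1 siRNA replicate 1 was the nearest to the controls. The difference was -0.33 ± 0.08 (SE, n = 3 per group; limma intensity-trend fit, adjusted p = 0.0367), and the dim second probe set had -0.15 with overlapping groups. Without BAHD1 siRNA replicate 1 the difference was -0.42, and without BAHD1 siRNA replicates 2 or 3 it was -0.29 and -0.28.

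The 3 calls were kept without control replicate 3 and without BAHD1 siRNA replicate 1, but not without any other array. Leaving out any one of the arrays of control replicates 1 and 2 and of BAHD1 siRNA replicates 2 and 3 left the limma intensity-trend fit with 0 helicase calls, and the adjusted p of the 3 ran from 0.0729 to 0.1445. Over all probe sets the calls dropped too, from 4.45% to between 0.645% and 1.07%. Their differences kept their sign in each case. Keeping all dim probe sets gave 0 helicase calls as well, with 0.729% of all called. With array medians centred DHX40 and DHX30 were no longer called (0.17 and 0.42), and the calls were 0 higher and 6 lower in place of 2 higher and 1 lower, with 6.22% of all probe sets called.

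**Figure D2:**
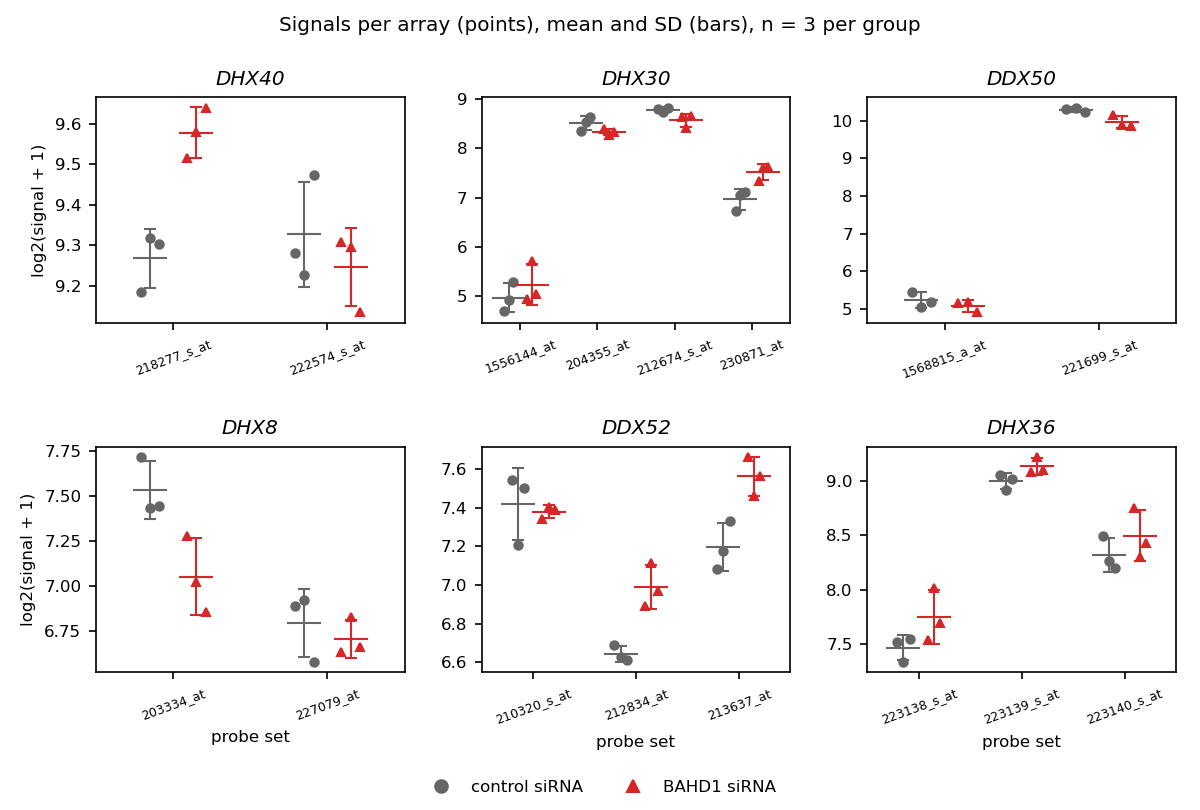
Signals on the log2(signal + 1) scale (y axis) of every kept probe set of DHX40, DHX30, DDX50, DHX8, DDX52 and DHX36 (x axis), with control siRNA arrays as grey circles and BAHD1 siRNA arrays as red triangles. Bars are means and SDs of 3 arrays. Within every gene shown, some kept probe sets separate the groups and others do not.

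DDX50 and DDX21 are neighbours on chromosome 10 in the RefSeq gene order, and their readings lay on opposite sides of 0. DDX21 helps to couple RNA polymerase I transcription to pre-rRNA processing. Its probe set 224654_at read 2872.8, 2991.6 and 2733.7 in control and 3308.2, 3109.5 and 3209.9 in BAHD1 siRNA arrays. Every BAHD1 siRNA array exceeded every control array, with a difference of 0.16 (95% interval 0.02 to 0.30; limma intensity-trend fit, adjusted p = 0.174). The second, 208152_s_at, had 0.04 (95% interval -0.11 to 0.19) and overlapping groups. After quantile normalisation of the arrays 224654_at was called as well, at 0.20 (adjusted p = 0.0306). With array medians centred it was at 0.03 and not called, and 208152_s_at was at -0.10, so the side of 0 depended on the scaling.

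As these related neighbours lie on the same strand, the 250 bases before their starts are shown for comparison. They were taken from the RefSeq promoter table of build GRCh38.p14, plus strand, at chr10:68901065-68901314 for DDX50 and, for the 2 starts listed for DDX21, at chr10:68955920-68956169 and chr10:68956397-68956646. Capitals mark matches, on either strand, to the GC box (GGGCGG), the CCAAT box (CCAAT), the TATA box (TATAAA), an ETS motif (CCGGAAG) and the E-box (CACGTG).
DDX50: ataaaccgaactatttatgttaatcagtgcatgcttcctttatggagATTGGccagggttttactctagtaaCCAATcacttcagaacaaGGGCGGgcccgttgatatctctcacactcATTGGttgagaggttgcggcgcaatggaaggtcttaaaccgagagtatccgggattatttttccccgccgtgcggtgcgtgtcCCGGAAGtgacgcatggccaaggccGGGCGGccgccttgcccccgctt
DDX21, upstream start: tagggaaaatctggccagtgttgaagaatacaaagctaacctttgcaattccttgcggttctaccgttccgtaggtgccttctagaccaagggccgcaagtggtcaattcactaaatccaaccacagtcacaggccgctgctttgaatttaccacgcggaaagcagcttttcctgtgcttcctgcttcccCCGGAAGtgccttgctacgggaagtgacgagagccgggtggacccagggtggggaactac
DDX21, downstream start: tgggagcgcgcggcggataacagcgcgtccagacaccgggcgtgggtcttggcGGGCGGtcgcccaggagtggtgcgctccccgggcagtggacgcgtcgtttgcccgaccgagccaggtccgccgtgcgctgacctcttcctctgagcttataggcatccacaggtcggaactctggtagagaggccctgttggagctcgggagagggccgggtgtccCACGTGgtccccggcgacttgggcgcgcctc

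The DDX50 window held 3 CCAAT boxes, 2 GC boxes and 1 ETS match. The upstream DDX21 window held 1 ETS match and no CCAAT or GC box, and the downstream window 1 GC box and 1 E-box. None of these 3 windows held the TATA letters. In all, 46 member genes matched the table, with 61 windows. The ETS letters were in 27.9% of those windows against 8.52% of all 35116 windows of the table, the CCAAT letters in 45.9% against 32%, the GC box in 59% against 42.6%, the E-box in 14.8% against 6.34% and TATAAA in 4.92% against 10.7%. A match to such letters is a description of the window and shows no binding.

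Splicing helicases were read by 17 kept probe sets of 10 genes, and none was called. Of the 17, 15 differences were negative and 2 positive, with a median of -0.09, where 48% of all kept probe sets were negative. Groups did not overlap in 4, all lower, against 12.2% lower without overlap among all. Several of the 17 share a gene, so they are not independent readings. After quantile normalisation 11 were negative and 6 positive, with a median of -0.10, where 51.2% of all probe sets were negative. With array medians centred all 17 were negative, against 68.1% of all. The median was -0.04 without control replicate 1 or without control replicate 2 and -0.05 without BAHD1 siRNA replicate 2. The split was 11 negative and 6 positive when BAHD1 siRNA replicate 3 was left out. A stricter filter at the 75th percentile of signal kept 15, of which 13 were negative, with a median of -0.05. Of all probe sets kept by that filter, 54.4% were negative. The largest difference was in DHX8, which releases the finished mRNA from the spliceosome. Its probe set 203334_at read 209.4, 172.2 and 172.9 in control and 154.2, 129 and 114.7 in BAHD1 siRNA arrays. All 3 BAHD1 siRNA arrays lay below all controls, and the difference of -0.48 ± 0.13 (SE, n = 3 per group) just missed the threshold (limma intensity-trend fit, adjusted p = 0.0522). The other kept DHX8 probe set had -0.09 with overlap.

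DDX41, a spliceosomal helicase known from inherited blood cancers, read 610.7, 513.6 and 523.8 in control and 505.4, 416 and 404.1 in BAHD1 siRNA arrays. Here BAHD1 siRNA replicate 1 lay just under the lowest control. The difference was -0.32 (95% interval -0.53 to -0.10; limma intensity-trend fit, adjusted p = 0.0872). Without BAHD1 siRNA replicate 1, DHX8 and DDX41 joined the calls, at -0.59 (adjusted p = 0.0278) and -0.42 (adjusted p = 0.0301). Other arrays moved them the other way. Without BAHD1 siRNA replicate 3 they were -0.38 and -0.26, and without control replicate 1 they were -0.39 and -0.24, all uncalled. DDX42, which associates with the SF3b complex, had -0.20 without overlap in 1 probe set and -0.05 with overlap in the other. DHX38, which acts between the catalytic steps of splicing, had -0.17 without overlap.

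The other splicing members gave narrow intervals around 0 where they were bright. DHX15, which takes spent spliceosomes apart, read 3121.4, 3063 and 3061.4 in control and 3204.9, 3072.7 and 2897.9 in BAHD1 siRNA arrays in its brighter probe set. The groups overlap, and the difference was -0.01 (95% interval -0.15 to 0.13). DDX20, a member of the SMN complex that assembles spliceosomal snRNPs, had -0.0014 (95% interval -0.15 to 0.15) and -0.10. DDX46, which remodels the U2 snRNP, had 0.01 and -0.03, and DHX16, needed for the first catalytic step, had -0.01. DDX23, which helps U6 replace U1 at the 5′ splice site, had 0.09 and -0.17, and DHX35 had -0.10 and -0.27, all with overlap.

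Helicases of ribosome assembly and the nucleolus were the largest group, with 30 kept probe sets of 14 genes. Of these, 13 were higher and 17 lower, with a median of -0.05, where 48% of all kept probe sets were lower. With array medians centred 6 were higher and 24 lower, against 68.1% lower among all. Without control replicate 3 the lean turned, with 16 higher, 14 lower and a median of 0.0078, and without BAHD1 siRNA replicate 1 the median was -0.02. DDX50 was the only call. Groups were free of overlap in 3 probe sets with higher and 4 with lower values in BAHD1 siRNA cells. The shares over all kept probe sets were 13.4% and 12.2%.

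Besides DDX21, the probe sets higher without overlap were both of DDX52, the human counterpart of yeast Rok1 in small-subunit assembly. DDX52 signals in 213637_at were 134.8, 143.6 and 160.1 in control and 201.4, 175.1 and 188.2 in BAHD1 siRNA arrays. In 212834_at they were 102.1, 97.9 and 96.7 against 117.5, 137.5 and 124.4. The differences were alike, 0.36 (adjusted p = 0.0747) and 0.35 (adjusted p = 0.111, limma intensity-trend fit). They were 0.23 and 0.21 with array medians centred. The other kept DDX52 probe set did not share this difference: 210320_s_at read 185.8, 146.7 and 180.5 in control and 161.1, 168.6 and 166.7 in BAHD1 siRNA arrays, a difference of -0.04 (95% interval -0.28 to 0.20).

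Of the others in this group, DDX49 had -0.35 without overlap in 1 probe set (131.8, 124.1 and 112.4 in control against 105.6, 99.3 and 84.5) and 0.08 and 0.02 in its further probe sets. DDX55, known for large-subunit assembly, had -0.23 without overlap. DDX56 had -0.13 without overlap in its bright probe set and 0.54 in a dim one, whose signals were 19.4, 26.9 and 18.1 in control and 38.2, 26 and 30.8 in BAHD1 siRNA arrays. The dim reading has overlapping groups and an interval from -0.06 to 1.15. All 3 probe sets of DDX54 were lower (-0.23, -0.20 and -0.13) with overlap, and DDX10, DDX24, DDX27, DDX31, DDX51, DHX33 and DHX37 lay between -0.19 and 0.35 with overlap.

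The mitochondrial group holds DHX30, described above, and DDX28, which is needed for the large mitochondrial ribosomal subunit. DDX28 gave 0.16 and 0.004 in its brighter probe sets and -0.50 in a dim one, which read 22.5, 26.5 and 17.3 in control and 23, 11.5 and 12.9 in BAHD1 siRNA arrays. The dim values overlap, with an interval from -1.35 to 0.35.

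In mRNA export, translation and turnover, 17 probe sets of 8 genes were kept, 9 higher and 8 lower, with a median of 0.06 (-0.07 with array medians centred), and none was called. Without control replicate 1 the median was 0.0021, and without control replicate 2 it was 0.0091. The largest difference of the whole family was in DDX19B, the nuclear pore helicase that strips proteins from exported mRNA. Its dim probe set read 57.1, 35.9 and 50.9 in control and 27.2, 30.1 and 27.5 in BAHD1 siRNA arrays. Every BAHD1 siRNA array was below every control, but the controls were scattered. The difference was -0.72 ± 0.22 (SE, n = 3 per group; limma intensity-trend fit, adjusted p = 0.0885). Its neighbour and close paralog DDX19A had -0.20 without overlap in 1 probe set (313.3, 369.7 and 354.5 against 305.8, 294.3 and 300.7) and -0.03 in another. Short probes may not separate such similar transcripts, so both are uncertain.

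DHX36, which unwinds G-quadruplexes in RNA and DNA, was the 1 gene besides DDX21 with several probe sets that were all higher. Its probe set 223139_s_at read 531.2, 481.2 and 518.1 in control and 540.6, 595.8 and 548.1 in BAHD1 siRNA arrays, free of overlap by a small margin. The 3 differences were 0.28, 0.18 and 0.14, none of them called (limma intensity-trend fit, adjusted p = 0.215, 0.409 and 0.319). They moved with single arrays: with 1 array left out the first ran from 0.15 (without BAHD1 siRNA replicate 2) to 0.39 and the second from 0.05 (without BAHD1 siRNA replicate 1) to 0.28. With array medians centred they were 0.14, 0.04 and 3e-04.

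DDX3X, an X-linked helicase of translation initiation, had 0.21, 0.12, 0.08 and -0.17 in its 4 kept probe sets, all with overlap. Its brightest probe set read 1396.7, 1707.7 and 1783.5 in control and 1746.9, 1693 and 1699 in BAHD1 siRNA arrays, where control replicate 1 was the low value; without that array the difference was -0.03. Probes of DDX3X may also pair with its Y-linked copy. DDX6, which represses translation and promotes decapping, had -0.05 (95% interval -0.19 to 0.09) in its bright probe set and 0.28 in a dim one. DDX39A, an mRNA export factor, had 0.06 (95% interval -0.08 to 0.21), or -0.07 with array medians centred. DHX29, which helps the ribosome scan structured leaders, had -0.05 and 0.18, and DHX34, a factor of nonsense-mediated decay, -0.01 and -0.29.

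The helicases of transcription and general RNA processing were lower in 9 of 10 kept probe sets, with a median of -0.10 (-0.09 after quantile normalisation, -0.17 without BAHD1 siRNA replicate 2, and -0.06 with BAHD1 siRNA replicate 3 left out). None was called, and 4 were lower without overlap. Among all kept probe sets 48% were lower, and 12.2% were lower without overlap. All 10 were lower with array medians centred, against 68.1% of all. The stricter filter kept 8, of which 7 were lower, against 54.4% of all. The 10 probe sets belong to 4 genes. DDX5, a coregulator of transcription and splicing, read 397.9, 435.7 and 419.5 in control and 328, 354.8 and 357.9 in BAHD1 siRNA arrays. All 3 BAHD1 siRNA arrays were below all controls, with a difference of -0.27 ± 0.08 (SE, n = 3 per group; limma intensity-trend fit, adjusted p = 0.0743).

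DDX17, the close paralog of DDX5, read 3495.4, 3523 and 3425.3 in control and 3011.7, 3166.7 and 3188.2 in BAHD1 siRNA arrays in its brightest probe set. These values do not overlap, with a difference of -0.16 (95% interval -0.29 to -0.02; limma intensity-trend fit, adjusted p = 0.171). A second DDX17 probe set had -0.24 without overlap, and the other 3 had -0.30, -0.04 and 0.03 with overlap. DHX9, or RNA helicase A, had -0.11, -0.09 and -0.08 in 3 overlapping comparisons. DDX1, part of the tRNA ligase complex, had -0.06 (95% interval -0.19 to 0.08); its values separated by a hair, with 1478.8 as the lowest control and 1477.2 as the highest BAHD1 siRNA signal.

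**Figure D3:**
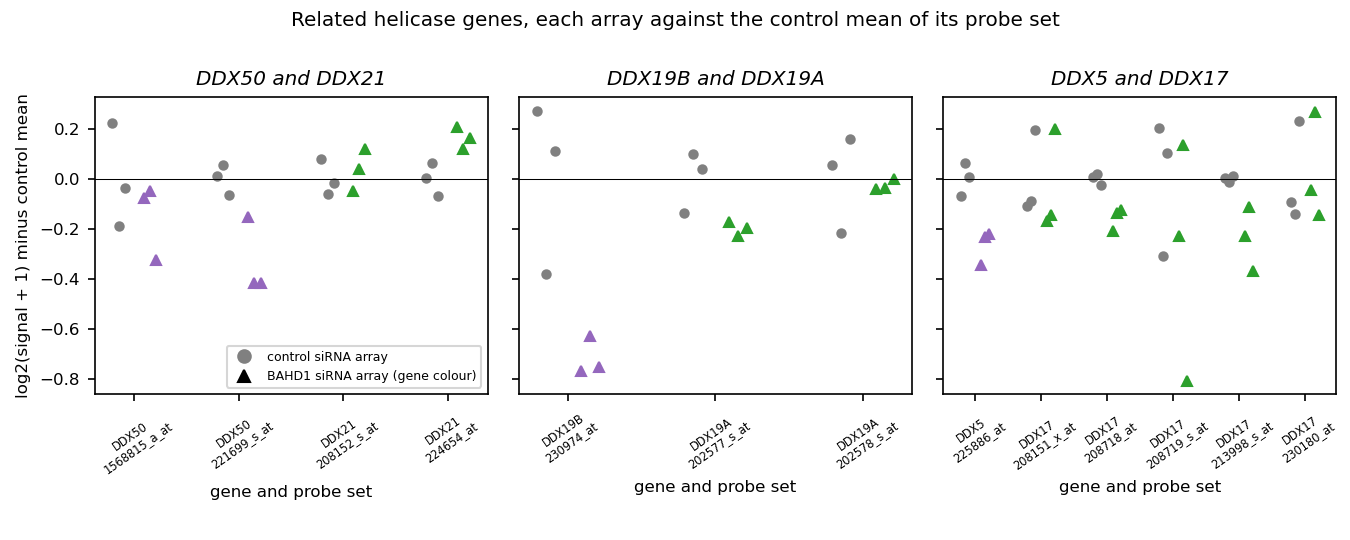
Each array's log2(signal + 1) minus the control mean of its probe set (y axis) for the related genes DDX50 and DDX21, DDX19B and DDX19A, and DDX5 and DDX17, with 1 column per kept probe set. Circles are control siRNA arrays and triangles BAHD1 siRNA arrays; DDX50 221699_s_at lies below its controls and DDX21 224654_at above them.

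DDX11, a DNA helicase needed for sister chromatid cohesion, was lower in all 4 of its probe sets. The differences were -0.31, -0.20, -0.17 and -0.09, of which the first 2 were free of overlap and none was called. Among all kept probe sets 48% were lower, 12.2% were lower without overlap and 2.28% were called lower. The 4 probe sets share a gene, so they are not independent readings. The probe set at -0.31 read 189, 192.2 and 167.8 in control and 136.5, 158.8 and 147.7 in BAHD1 siRNA arrays. DDX11 has near-identical pseudogene copies, which these probes may also read. DDX60, an interferon-inducible antiviral helicase, had -0.04 with overlap.

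Among the members without an assigned role, DHX57 had -0.32 without overlap (117.4, 122.1 and 121.7 in control against 102.7, 97.6 and 88.5; limma intensity-trend fit, adjusted p = 0.142). DHX32 had 0.05 (95% interval -0.11 to 0.21), and DDX59, mutated in an orofaciodigital syndrome, had 0.18, 0.02 and -0.14 with overlap.

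Probe sets of the same gene often disagreed in direction. Of the 44 genes, 32 had more than 1 kept probe set. In 17 of the 32 the probe sets lay on both sides of 0, in 13 all were lower and in 2 all were higher (DDX21 and DHX36; with array medians centred 1 DDX21 probe set was at -0.10). The 95% interval stayed inside -0.5 to 0.5 in 62 of the 93 probe sets. Signals of different probe sets depend on their probes, so levels are not compared between genes here.

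**Figure D4:**
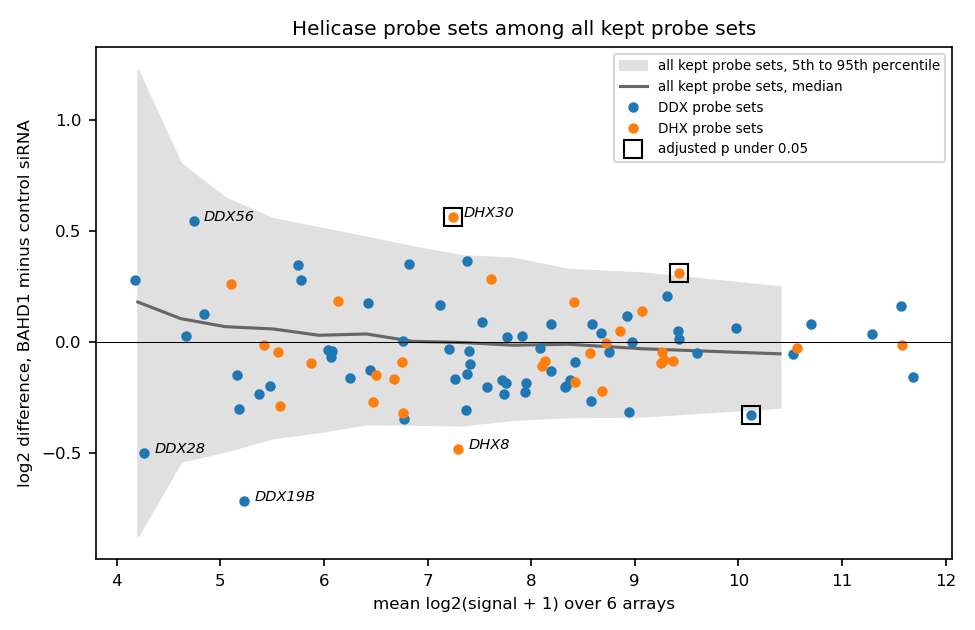
Log2 difference (y axis) against mean log2(signal + 1) over the 6 arrays (x axis) for DDX (blue) and DHX (orange) probe sets, over the median (line) and the 5th to 95th percentile (grey) of all kept probe sets in 12 bins of signal. DDX19B at -0.72, DHX30 at 0.56, DHX8 at -0.48 and, by a small margin, DDX50 at -0.33 and DHX40 at 0.31 lie outside the grey band. Most helicase probe sets lie inside it.

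RNA helicases outside the DDX and DHX names were set beside the family, each by its brightest kept probe set. Of 18 listed, 13 were measured, with 8 lower, 5 higher and a median of -0.01. Groups did not overlap in 4, all lower, where 12.2% of all kept probe sets were lower without overlap. Of all kept probe sets, 2.28% were called lower. One was called: SUPV3L1, the mitochondrial RNA degradosome helicase, fell by 0.55 on the log2 scale (188.7, 202.4 and 209 in control against 170.2, 119.9 and 123.8; limma intensity-trend fit, adjusted p = 0.036). MOV10 had -0.24, DICER1 -0.21 and ASCC3 -0.21, each lower without overlap and uncalled, and the other kept ASCC3 probe set had 0.11. SNRNP200, the spliceosomal helicase that unwinds U4 from U6, had 0.07, the exon junction helicase EIF4A3 had 0.16 and the nonsense-mediated decay helicase UPF1 had -0.0045, all uncalled. The other kept UPF1 probe set had -0.45.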

How the data were processed

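The deposited table gives linear intensity values to 1 decimal for every probe set. Trimmed of 2% at either end, each array averaged 100, the target of GCOS-type scaling. GCOS and GCRMA are named in the submitters' processing notes without versions; the sources used here do not say which wrote the table. Genes come from the platform annotation, and 0 member symbols needed an update through RefSeq.

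The values were used as log2(signal + 1). The 62 control probe sets were left out, and 27458 probe sets passed the filter. BAHD1 siRNA was compared with control siRNA (titles give group and replicate) in R 4.3.3 with limma 3.58.1, over the whole table, with Benjamini-Hochberg adjustment, by a fit with one prior and by the intensity-trend fit (eBayes with trend and robust), and only the family's values are printed. The code was tested on simulated data. Labels call the samples biological replicates; the number of arrays limits the precision, and no detection calls were used. Same-numbered arrays did not deviate together (r = 0.010, 0.010 and 0.024), so numbers were not treated as pairs outside the replicate block.

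The members, role groups and lists were chosen with earlier results of these data known. Named were genes with a call, the 8 smallest p-values per direction in the intensity-trend fit, the 5 brightest, a list of well-known members, and genes with opposed non-overlapping probe sets; further members are given by values so that all are accounted for. Alternatives were a replicate block, other filters, quantile normalisation, centred medians, array weights, log2(signal + 16), a threshold of 0.1, 1 probe set per gene and leaving out each array. One listed cell line marker is not reported here.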

Additional observations from a re-analysis of the deposited data

How the results depend on the processing

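In the intensity-trend fit the 3 helicase calls became 5 with a replicate block (DDX41 and DHX8 added, with 5.93% of all probe sets called). They became 0 with no filter (0.729% of all) and 6 of 67 with a stricter filter at the 75th percentile (DDX5, DDX52 and DHX8 added, 11.7% of all). With array medians centred there were 6, all lower (6.22% of all). A threshold of 0.1 gave 8, and as the share of all probe sets there is not given, nothing is read from that count. With 1 array left out the count ran from 0 to 5 (0.645% to 4.28% of all), and the lost calls are named in the report. Quantile normalisation, array weights and log2(signal + 16) gave 4 each (4.49%, 5.54% and 4.8% of all), with all 3 calls among them. The fit with one prior called 0 under every alternative and with each array left out, except 6 with the stricter filter (2 probe sets of DDX52, and DHX30, DHX40, DHX57 and DHX8), which tests fewer probe sets; 8.27% of all probe sets passed there. The replicate block treats same-numbered arrays as pairs. Such arrays hardly deviated together, although 4 of 6 arrays correlated best with their own number in the other group. The median difference of the family, -0.05, was -0.0669 after quantile normalisation and -0.19 with array medians centred, where the median of all probe sets was -0.13, and it ran from -0.0713 to -0.0444 with 1 array left out. The count of probe sets without overlap was 24 of 93, against 25.6% of all. It was 27 of 120 with no filter, 23 of 67 with the stricter filter and 16 of 44 for 1 probe set per gene. With array medians centred it was 30. It ran from 30 to 35 with 1 array left out, where separation is easier with fewer arrays. The shares of all probe sets under these alternatives are not given, so nothing is read from how the counts compare. Of 578 alternative values for the 45 named probe sets, 523 moved by less than the spread between replicates or kept their call, and 24 changed sign, all of them in values that were not called. Dim probe sets had wide intervals, such as -1.35 to 0.35 for 1 of DDX28, and there only larger differences could be detected.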

Other observations

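Cofactors that activate or guide these helicases were listed from general knowledge, 29 in all, and 25 were measured by their brightest kept probe set. Of the 25, 14 were higher and 11 lower in BAHD1 siRNA cells, with a median log2 difference of 0.02. Groups did not overlap in 3 with higher and 6 with lower values, against 13.4% and 12.2% of all kept probe sets. The intensity-trend fit of limma called 2, both higher, where 2.17% of all kept probe sets were called higher and 2.28% lower. LSM14A, a partner of DDX6 in messenger ribonucleoprotein granules, read 436.1, 497.2 and 469.7 in control arrays and 667.8, 532.8 and 706.2 in BAHD1 siRNA arrays. It rose by 0.43 ± 0.10 (SE, n = 3 per group; limma adjusted p = 0.0321), and its further kept probe sets were as low as 0.16. RBM17, a splicing factor with a G-patch, the kind of domain that stimulates DEAH helicases, read 573, 506.5 and 587.4 in control and 671.1, 720.5 and 768 in BAHD1 siRNA arrays. It rose by 0.37 ± 0.08 (SE, n = 3 per group; limma adjusted p = 0.0248), with its lowest kept probe set at 0.09. LSM14B, the paralog of LSM14A, had -0.76 without overlap and was not called (limma adjusted p = 0.072), and its other kept probe set had -0.12. The fit with one prior called none of the 25.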
